A study of Homo sapiens with 8 samples.

Results

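Axon guidance ligands and receptors are the secreted and surface proteins that steer growing axons and migrating cells. The genes described are the rows of the FPKM table whose symbol names an ephrin, an Eph receptor, a class 3 to 7 semaphorin, a plexin, a neuropilin, a netrin, a netrin-G protein, a SLIT, a ROBO, an UNC5 receptor or DCC, 71 of the table's 26372 symbols. RNA was measured in cells labelled M17, taken here as the established human neuroblastoma line BE(2)-M17 (the growth protocol also names a second line, SH-SY5Y), with 4 libraries from cells given interferon-γ (IFN-γ) at 10 ng/ml for 24 h and 4 libraries from untreated cells. Both groups were grown in medium with fetal bovine serum, and no vehicle is named for the untreated cells. Whether replicates were grown apart is not stated, and the p-values may therefore reflect technical spread alone. FPKM scales the fragments of a gene by transcript length and by the mapped fragments of the library, so levels can be compared between genes.

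Ephrins and Eph receptors both sit in the membrane, and a bound pair can signal into either cell, most often to repel. Class 3 semaphorins are secreted and act through a neuropilin that binds them and a plexin that signals, while most membrane-bound semaphorins bind plexins directly. Netrins attract through DCC and repel through UNC5 receptors, and SLITs repel through ROBO receptors. Netrin-G proteins are held in the membrane by a lipid anchor and bind LRRC4-family proteins at synapses in place of DCC or UNC5. Sympathetic neuroblasts, from which neuroblastoma arises, derive from the neural crest, whose migration several of these systems direct.

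The treatment was visible in the libraries. IRF1, an interferon-induced transcription factor, was at 125 ± 2.14 FPKM with IFN-γ and 0.584 ± 0.0404 untreated (SD, n = 4 each, as throughout). Of the markers of catecholaminergic neuroblasts 9 were tested, among them HAND2 at 297 ± 4.82 FPKM with IFN-γ and 307 ± 2.62 untreated, and 2 of the 9 (CHGA and PHOX2A) were called higher. Their list summed to 1516 to 1639 FPKM with IFN-γ and 1369 to 1404 untreated. Summed over each list, haematopoietic markers were at 0.437 to 0.653 FPKM with IFN-γ and 0.223 to 0.556 untreated, and endothelial markers at 0.0224 to 0.0838 and 0.0575 to 0.115. CD3E, a T cell marker, was listed at 0 in all 8 libraries. Glial markers summed to 2.54 to 3.12 FPKM with IFN-γ and 2.28 to 2.51 untreated. Fibroblast markers summed to 154 to 197 FPKM with IFN-γ and 147 to 156 untreated, most of it DCN at 143 ± 22.3 FPKM with IFN-γ and 139.9 ± 4.40 untreated, where PDGFRB was called higher at 21.0 ± 1.52 FPKM with IFN-γ and 8.20 ± 0.442 untreated and COL1A1 lower at 1.37 ± 0.170 FPKM with IFN-γ and 1.86 ± 0.0528 untreated. The part of these cell type markers in the results below was not tested, and in bulk RNA fewer cells of a type and less RNA per cell cannot be told apart.

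Guidance genes changed in both directions with IFN-γ. The largest rise was in NTNG1, which encodes netrin-G1, from a low level, followed by NRP1 (neuropilin-1) and SEMA3E, and the largest fall among the genes tested was in EFNB2 (ephrin-B2). Of the 71 genes, 46 had a mean of at least 0.5 FPKM over the 8 libraries and were tested with all 13598 such genes of the table by limma on log2(FPKM + 0.1), at an adjusted p of 0.05. 26 of the 46 were called (56.5%), where 22.3% of all genes tested were called. 11 were higher (23.9%, against 13.3% of all genes) and 15 lower (32.6%, against 9.05%). Values of the groups did not overlap in 29 of the 46, 11 higher and 18 lower, against 28.2%, 15.4% and 12.9% of all genes tested. The 71 genes were chosen with earlier results of these data known, so these shares are descriptions only. The median log2 change was -0.13 over the 46 and -0.0047 over all genes tested. Most changes were small: 16 of the 26 were under 1.5-fold, and NTNG1, NRP1 and EFNB2 passed 2-fold on the log2(FPKM + 0.1) scale. The added 0.1 makes the change of low genes look smaller than it is. An exact two-sided permutation test of each called gene gave p = 0.0286, the smallest that the 70 arrangements allow. Groups that do not overlap always give this value, so it adds nothing to the count of such genes. EFNB1, PLXNA3 and PLXNB3, which were not called, had it too.

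The balance of rises and falls depended on the scaling. Rescaled to TPM without short RNA genes, 5 guidance genes were called higher and 15 lower, and over all genes tested 1145 were higher and 1780 lower, where the deposited FPKM gave 1809 and 1230. Quantile normalization gave 11 higher and 18 lower among the guidance genes and 1470 and 2564 over all genes. The FPKM sum of IFN-γ replicate 4 was 760353, where the other IFN-γ libraries summed to 591795 to 603942. The untreated libraries summed, in replicate order, to 1256812, 1433357, 633862 and 1330601. SNORD3A, a small nucleolar RNA, held 53.2, 57.9, 5.97 and 55.7% of these untreated sums and 0 of the IFN-γ sums. The part of these differences in the shifts was not tested. No called guidance gene changed sign under any scaling.

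**Figure D1:**
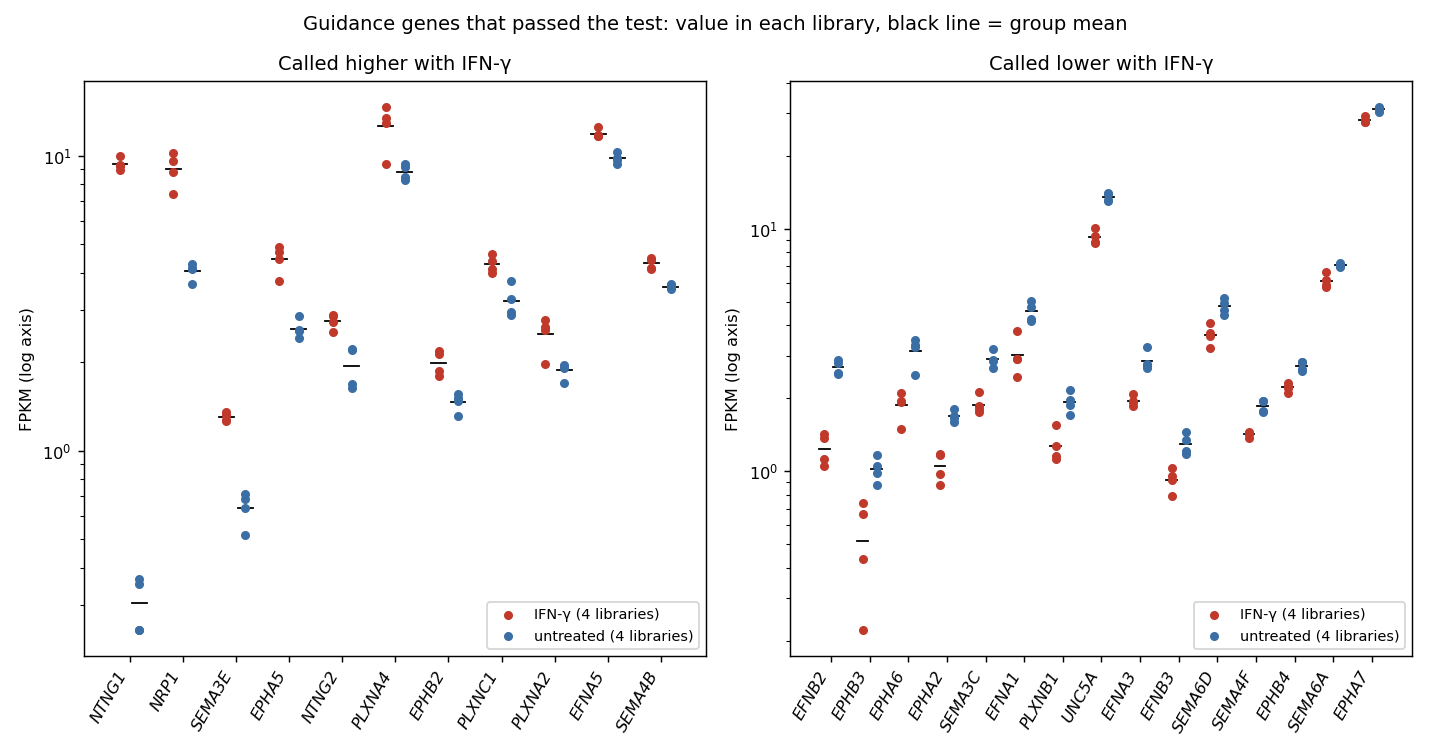
FPKM (log axis) of the 26 called guidance genes in each of the 4 IFN-γ libraries (red, left) and 4 untreated libraries (blue, right), with the group mean as a black line. The groups do not overlap in any of the 26, and NTNG1 shows the widest gap, from 8.96 to 9.94 FPKM with IFN-γ and from 0.247 to 0.367 untreated.

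Both netrin-G genes rose. NTNG1 was at 9.20, 9.94, 8.96 and 9.31 FPKM in the IFN-γ libraries, against 0.248, 0.367, 0.353 and 0.247 in the untreated libraries. All 4 IFN-γ values lay above every untreated value, and the mean was 30.8-fold higher (log2 change 4.56, SE 0.13, limma adjusted p = 1.4e-09). By the longest annotated transcript and the estimated depth, these values stand for about 660.5 to 902 fragments per library with IFN-γ and 19.1 to 33.5 untreated. NTNG1 passed the filter only through the IFN-γ libraries, and its change ranked 77 of 13598 from the largest rise. GENCODE release 29 (GRCh38) places the gene at chromosome 1, bases 107140007 to 107483458, forward strand. NTNG2, which encodes the related netrin-G2, was at 2.53, 2.74, 2.87 and 2.88 FPKM in the IFN-γ libraries, against 1.64, 2.21, 1.68 and 2.19 in the untreated libraries. Its groups did not overlap and the mean was 1.43-fold higher (log2 change 0.50, SE 0.12, limma adjusted p = 0.0137). The partner of netrin-G1, LRRC4C, lay below the filter at 0.188 ± 0.0553 FPKM with IFN-γ and 0.123 ± 0.0740 untreated, and the partner of netrin-G2, LRRC4, was not called at 1.38 ± 0.175 FPKM with IFN-γ and 1.53 ± 0.119 untreated. LRRC4C RNA was thus low in both groups.

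RefSeq promoter windows (GRCh38.p14, 250 bases before to 50 after a transcript start) were searched for all guidance genes that had one, to show whether short motifs linked to interferon signalling occur there. 60 of the 71 genes had a window, NRP1 not among them. Those of NTNG1, SEMA3E and EFNB2 are printed, the 2 largest rises and the largest fall among called genes with a window. Where a gene had several windows, one that held a match was chosen for printing. The GAS core TTCNNNGAA, an element of IFN-γ responsive promoters, and the ISRE core, GAAA followed by any 2 bases and GAAA again, bound by interferon regulatory factors, were searched on both strands, and a match of one may share bases with a match of the other. Matches are in capitals.
NTNG1 promoter window, chr1:107140789-107141088, forward strand: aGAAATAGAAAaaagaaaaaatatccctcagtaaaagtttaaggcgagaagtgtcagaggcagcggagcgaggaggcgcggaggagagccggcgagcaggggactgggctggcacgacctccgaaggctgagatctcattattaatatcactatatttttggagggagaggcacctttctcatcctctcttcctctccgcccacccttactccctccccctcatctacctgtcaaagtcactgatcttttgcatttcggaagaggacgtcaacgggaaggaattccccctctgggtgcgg
SEMA3E promoter window, chr7:83649090-83649389, reverse strand: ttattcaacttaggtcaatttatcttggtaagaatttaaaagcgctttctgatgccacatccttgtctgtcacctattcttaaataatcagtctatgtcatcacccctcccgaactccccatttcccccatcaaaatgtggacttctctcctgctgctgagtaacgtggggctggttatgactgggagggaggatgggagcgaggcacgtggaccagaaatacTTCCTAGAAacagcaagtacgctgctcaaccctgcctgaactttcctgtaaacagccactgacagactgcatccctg
EFNB2 promoter window, chr13:106535613-106535912, reverse strand: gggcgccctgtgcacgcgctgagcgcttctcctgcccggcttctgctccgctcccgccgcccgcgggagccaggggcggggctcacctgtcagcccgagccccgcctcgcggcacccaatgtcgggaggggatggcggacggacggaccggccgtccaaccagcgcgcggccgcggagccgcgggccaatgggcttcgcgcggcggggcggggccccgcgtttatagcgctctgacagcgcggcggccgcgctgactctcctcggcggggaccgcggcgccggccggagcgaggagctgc
The second of the 3 NTNG1 windows held the ISRE core at position -249 from its start, and the first of the 2 SEMA3E windows held the GAS core at -27. The EFNB2 window, those of EPHB3 and EPHA6 and the other NTNG1 and SEMA3E windows held neither. Over all 35116 windows of the table, 7.66% held the GAS core and 3.57% the ISRE core. Among the 17 windows of 9 guidance genes called higher, 2 (EPHA5 and SEMA3E) held the GAS core and 3 (NTNG1 and PLXNC1) the ISRE core. Of the 20 windows of 13 genes called lower, 1 (EFNA3) held the GAS core and 0 the ISRE core. Of the 24 windows of tested genes not called, 0 held the GAS core and 1 (SEMA3F) the ISRE core, and of the 33 of genes below the filter 2 and 1. Over all 94 windows of guidance genes the share was 5.32% for either core. These matches describe letters in the windows and no binding was measured.

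Among the receptors of netrins, UNC5A fell while the more abundant UNC5B and UNC5C did not pass the test. UNC5B and UNC5C, which mediate repulsion and can trigger cell death when no netrin is bound, had the 2 highest levels of the 71 genes, at 74.3 ± 10.8 FPKM with IFN-γ and 73.0 ± 2.77 untreated for UNC5B and 64.5 ± 2.66 FPKM with IFN-γ and 60.7 ± 0.680 untreated for UNC5C, and neither was called (limma adjusted p = 0.935 and 0.138). UNC5A, another such receptor, was at 8.84, 9.32, 10.1 and 8.79 FPKM in the IFN-γ libraries, against 14.0, 13.1, 13.9 and 13.0 in the untreated libraries. All 4 IFN-γ values lay below the untreated ones, and the untreated mean was 1.46-fold that of the IFN-γ libraries (log2 change -0.54, SE 0.06, limma adjusted p = 6.6e-05). DCC, the attractive netrin receptor, was at most 0.0109 FPKM with IFN-γ and at most 0.00554 untreated, and UNC5D, also below the filter, was at 0.0465 ± 0.0187 FPKM with IFN-γ and 0.0977 ± 0.0151 untreated. The netrin ligands were low: NTN3 was the highest at 0.985 ± 0.351 FPKM with IFN-γ and 1.18 ± 0.452 untreated and was not called, and NTN1, NTN4 and NTN5 were below the filter, NTN1 at 0.115 ± 0.0284 FPKM with IFN-γ and 0.176 ± 0.0428 untreated. NEO1, a DCC-related receptor of netrins and RGM proteins, was called higher at 7.64 ± 0.693 FPKM with IFN-γ and 6.07 ± 0.247 untreated (log2 change 0.32, limma adjusted p = 0.0105). Whether this call holds under other scalings or with a library left out was not examined.

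Over the 46 tested guidance genes, IFN-γ replicate 4 differed from the mean of the other 3 IFN-γ libraries by a median of -0.10 (log2). Over all genes tested that median was 0.00038. UNC5B was at 80.2, 78.7, 80.3 and 58.1 FPKM in the IFN-γ libraries, against 76.4, 73.5, 72.4 and 69.7 in the untreated libraries, so that the fourth IFN-γ library was the lowest of all 8. Without it UNC5B was called higher (log2 change 0.13, limma adjusted p = 0.0137), as were UNC5C (0.12, 0.00311) and SLIT3 (0.16, 9.3e-04), while PLXNA3 was called lower (-0.21, 0.0417). Across the 46 genes the difference of that library went with transcript length at a Spearman correlation of -0.31, and across 12700 tested genes of the table with a single GENCODE match at -0.41, given as a description. The part of RNA quality in these values was not tested.

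Among the neuropilins, which bind class 3 semaphorins and VEGF, NRP1 rose and NRP2 did not pass the test. NRP1 was at 10.2, 8.79, 9.57 and 7.44 FPKM in the IFN-γ libraries, against 4.15, 3.68, 4.14 and 4.29 in the untreated libraries. The groups were well apart, the lowest IFN-γ library at 7.44 and the highest untreated at 4.29, and the mean was 2.22-fold higher (log2 change 1.12, SE 0.10, limma adjusted p = 1.6e-05). The gene, at chromosome 10, bases 33177492 to 33336262, reverse strand, shares 561 exonic bases with an antisense gene, AL121748.2. The sources do not state that the counting used strand, so reads of such partners cannot be told apart here. NRP2 was at 0.868 ± 0.0913 FPKM with IFN-γ and 0.951 ± 0.0973 untreated (limma adjusted p = 0.605).

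Class 3 semaphorins, the secreted ligands of the neuropilins, moved in opposite directions. SEMA3E, which signals through PLXND1 without a neuropilin, was at 1.27, 1.35, 1.26 and 1.32 FPKM in the IFN-γ libraries, against 0.519, 0.712, 0.688 and 0.637 in the untreated libraries. Each IFN-γ library was higher than each untreated one, and the mean was 2.03-fold higher (log2 change 0.93, SE 0.14, limma adjusted p = 8.6e-04). SEMA3C, a guide of neural crest cells in heart development, was at 1.80, 1.86, 1.75 and 2.11 FPKM in the IFN-γ libraries, against 2.87, 3.20, 2.85 and 2.67 in the untreated libraries. It was lower in all 4 IFN-γ libraries, with an untreated mean 1.54-fold that with IFN-γ (log2 change -0.60, SE 0.10, limma adjusted p = 0.00135). SEMA3A, the classical collapsing factor of sensory growth cones, was at 1.13 ± 0.0953 FPKM with IFN-γ and 0.940 ± 0.140 untreated and SEMA3F, the ligand of NRP2, at 3.30 ± 0.304 FPKM with IFN-γ and 3.71 ± 0.395 untreated, and neither was called (limma adjusted p = 0.261 and 0.282). SEMA3D lay below the filter at 0.243, 0.246, 0.208 and 0.264 FPKM in the IFN-γ libraries, against 0.616, 0.701, 0.563 and 0.640 in the untreated libraries. Its groups did not overlap, and in a fit without a filter it was called lower (log2 change -1.10, limma adjusted p = 8.6e-04). SEMA3B and SEMA3G were also below the filter, at 0.163 ± 0.0323 FPKM with IFN-γ and 0.173 ± 0.0501 untreated and at 0.0961 ± 0.0293 FPKM with IFN-γ and 0.163 ± 0.0362 untreated.

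Of the 13 class 4 to 7 semaphorins, which are anchored in the membrane, 8 were tested, 1 was higher and 3 were lower. SEMA4B was higher at 4.44, 4.13, 4.52 and 4.16 FPKM in the IFN-γ libraries, against 3.65, 3.55, 3.67 and 3.53 in the untreated libraries (log2 change 0.25, SE 0.06, limma adjusted p = 0.0182). Both SEMA6D and SEMA4F were lower in all 4 IFN-γ libraries. SEMA6D, a ligand of PLXNA1, was at 3.72, 3.24, 4.07 and 3.61 FPKM in the IFN-γ libraries, against 4.62, 4.42, 4.95 and 5.16 in the untreated libraries (log2 change -0.38, SE 0.09, limma adjusted p = 0.00985). For SEMA4F the values were 1.44, 1.45, 1.37 and 1.42 FPKM in the IFN-γ libraries, against 1.77, 1.76, 1.96 and 1.94 in the untreated libraries (log2 change -0.36, SE 0.10, limma adjusted p = 0.0219). SEMA6A, a ligand of PLXNA2 and PLXNA4, was lower at 5.74, 6.16, 6.62 and 5.89 FPKM in the IFN-γ libraries, against 7.05, 6.94, 7.25 and 7.09 in the untreated libraries (log2 change -0.21, SE 0.06, limma adjusted p = 0.0264). In each of these 4 genes the groups were separate, by small margins. The calls were lost without some single libraries: SEMA4B without IFN-γ replicate 1 or 3 or untreated replicate 2 or 4 (limma adjusted p = 0.0511 to 0.0531) and in TPM without short RNA genes (0.250), SEMA4F without IFN-γ replicate 3 or untreated replicate 3 or 4 (0.0533 to 0.0685), and SEMA6A without any of them but IFN-γ replicate 3 or 4 (0.0511 to 0.0750). SEMA4C, the most abundant, was at 8.65 ± 0.878 FPKM with IFN-γ and 8.38 ± 0.817 untreated, and SEMA4D, the ligand of PLXNB1, at 5.23 ± 0.722 FPKM with IFN-γ and 4.99 ± 0.322 untreated. These and SEMA4A and SEMA4G were not called, with log2 changes of -0.08 to 0.08. SEMA4G shares 1170 exonic bases with MRPL43 on the other strand, which was at 34.6 FPKM with IFN-γ and 32.8 untreated.

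All 9 plexins, the signalling receptors of semaphorins, were tested, and 3 were higher and 1 lower. PLXNA4, which serves SEMA3A with NRP1 and SEMA6A alone, was at 13.4, 12.9, 14.6 and 9.34 FPKM in the IFN-γ libraries, against 9.12, 9.34, 8.45 and 8.28 in the untreated libraries. 3 IFN-γ libraries were far above the untreated ones and replicate 4 was level with the highest of them (log2 change 0.49, SE 0.12, limma adjusted p = 0.0154). PLXNC1, the receptor of SEMA7A, was higher at 4.02, 4.66, 4.40 and 4.11 FPKM in the IFN-γ libraries, against 2.96, 3.27, 3.75 and 2.89 in the untreated libraries (log2 change 0.41, SE 0.10, limma adjusted p = 0.0117). PLXNA2 was higher at 2.63, 2.56, 2.77 and 1.96 FPKM in the IFN-γ libraries, against 1.92, 1.70, 1.95 and 1.91 in the untreated libraries (log2 change 0.38, SE 0.12, limma adjusted p = 0.0460), a call that was lost without any library but IFN-γ replicate 4 (limma adjusted p = 0.0775 to 0.118). In all 3 genes each IFN-γ value was above the untreated ones. PLXNB1, the receptor of SEMA4D, was lower at 1.27, 1.55, 1.12 and 1.16 FPKM in the IFN-γ libraries, against 2.16, 1.71, 1.87 and 1.96 in the untreated libraries (log2 change -0.56, SE 0.13, limma adjusted p = 0.0113). The calls of PLXNA4, PLXNC1 and PLXNA2 were lost in TPM without short RNA genes (limma adjusted p = 0.0812, 0.0738 and 0.201). PLXNB2, the most abundant plexin, was not called at 15.0 ± 1.75 FPKM with IFN-γ and 17.1 ± 1.03 untreated, and neither were PLXNA1 (3.62 ± 0.467 FPKM with IFN-γ and 3.34 ± 0.241 untreated), PLXND1 (5.52 ± 0.458 FPKM with IFN-γ and 6.08 ± 0.273 untreated), PLXNA3 (3.99 ± 0.640 FPKM with IFN-γ and 4.99 ± 0.262 untreated) and PLXNB3 (0.951 ± 0.196 FPKM with IFN-γ and 1.31 ± 0.0916 untreated). In PLXNA3 and PLXNB3 all IFN-γ values were below the untreated ones (limma adjusted p = 0.0659 and 0.0793), and both passed, as did PLXNB2, after quantile normalization.

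**Figure D2:**
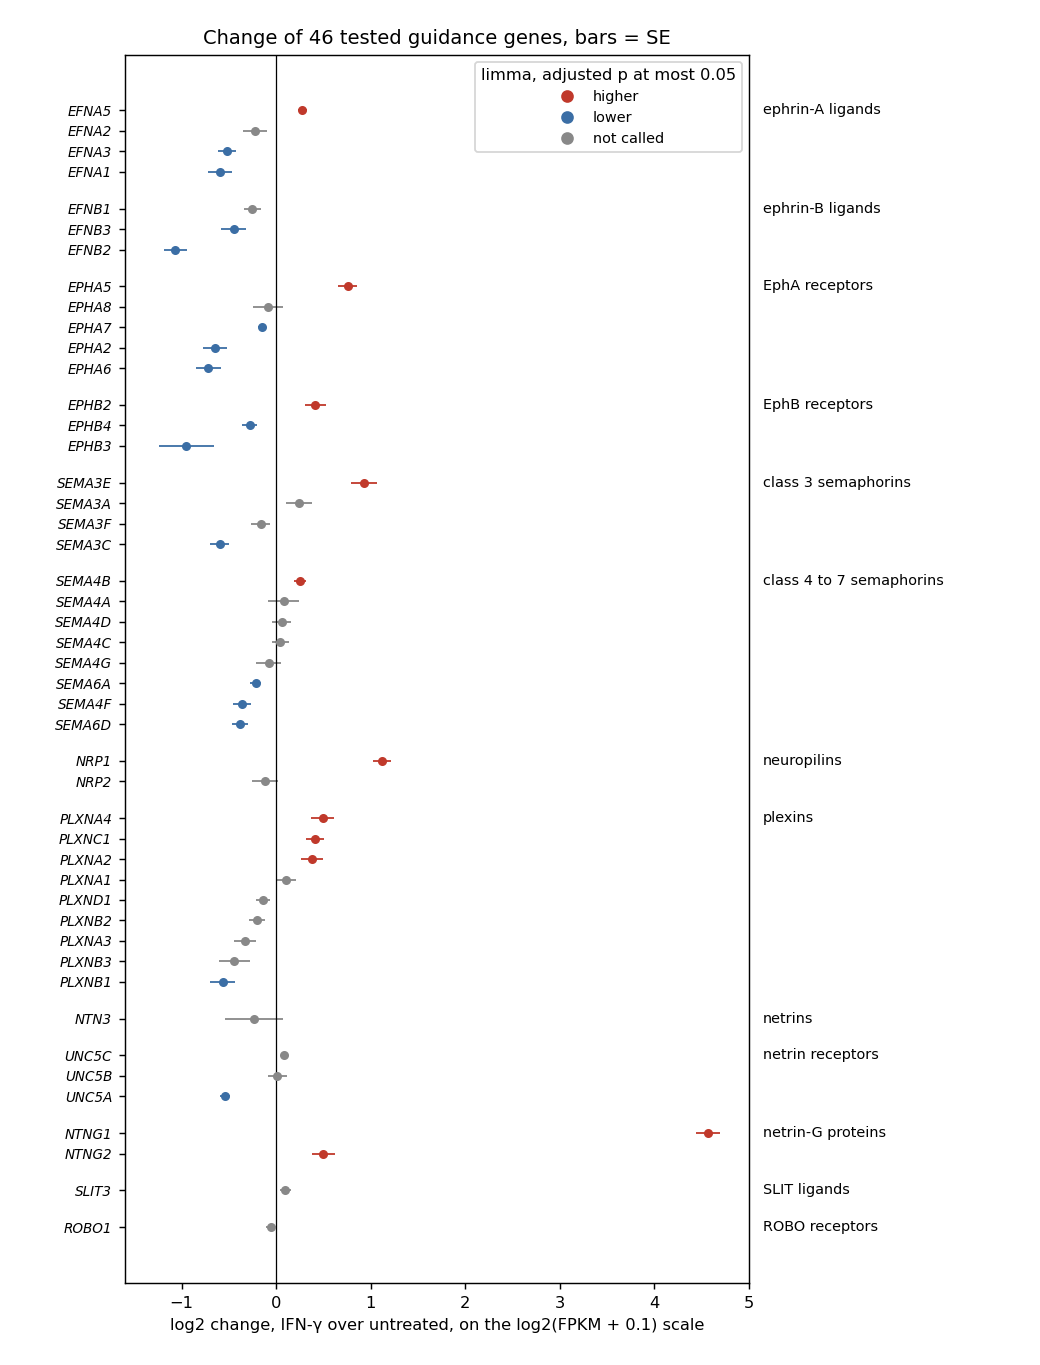
Log2 change (IFN-γ over untreated) of the 46 tested guidance genes by family, with bars for SE, in red where called higher, blue where called lower and grey where not called. NTNG1 stands at 4.56 and all the other genes between -1.06 and 1.12.

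Of the 7 ephrin ligands tested, EFNB2, EFNB3, EFNA1 and EFNA3 were lower with IFN-γ and EFNA5 was higher. EFNB2, a ligand of EPHB4 and other Eph receptors best known from blood vessels and neural crest, was at 1.43, 1.12, 1.37 and 1.05 FPKM in the IFN-γ libraries, against 2.52, 2.55, 2.87 and 2.81 in the untreated libraries. The highest IFN-γ value was 1.43 and the lowest untreated value 2.52, and the untreated mean was 2.17-fold that with IFN-γ (log2 change -1.06, SE 0.12, limma adjusted p = 1.2e-04). The gene, at chromosome 13, bases 106489731 to 106535662, reverse strand, shares 1313 exonic bases with an antisense gene, AL138689.2. EFNB3 was at 0.921, 0.953, 1.03 and 0.789 FPKM in the IFN-γ libraries, against 1.17, 1.34, 1.22 and 1.45 in the untreated libraries (log2 change -0.45, SE 0.13, limma adjusted p = 0.0371), and its call was lost without any library but IFN-γ replicate 3 (limma adjusted p = 0.0508 to 0.104). EFNB1 did not pass at 3.47 ± 0.319 FPKM with IFN-γ and 4.15 ± 0.365 untreated (limma adjusted p = 0.0744), although its groups did not overlap.

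Among the ephrin-A ligands, which are held by a lipid anchor, EFNA1, the high-affinity ligand of EPHA2, was at 2.44, 2.90, 2.91 and 3.80 FPKM in the IFN-γ libraries, against 4.27, 4.17, 5.05 and 4.77 in the untreated libraries (log2 change -0.60, SE 0.13, limma adjusted p = 0.00715). EFNA3 was at 2.08, 1.94, 1.94 and 1.85 FPKM in the IFN-γ libraries, against 3.26, 2.67, 2.77 and 2.71 in the untreated libraries (log2 change -0.52, SE 0.09, limma adjusted p = 0.00257). Both were lower in all 4 IFN-γ libraries. EFNA5, the most abundant ephrin and a repellent in topographic maps, was higher at 12.5, 11.7, 11.7 and 11.6 FPKM in the IFN-γ libraries, against 9.83, 10.3, 9.66 and 9.40 in the untreated libraries (log2 change 0.28, SE 0.05, limma adjusted p = 0.00221), a call that was lost in TPM without short RNA genes (log2 change 0.19, limma adjusted p = 0.105). EFNA2 was not called at 1.80 ± 0.229 FPKM with IFN-γ and 2.13 ± 0.289 untreated, and EFNA4 was below the filter at 0.340 ± 0.134 FPKM with IFN-γ and 0.426 ± 0.147 untreated.

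EphA receptors, which bind ephrin-A ligands, had 5 of 9 members tested, with 1 higher and 3 lower. EPHA5, a receptor of ephrin-A5 in neurons, was at 4.71, 4.91, 4.47 and 3.75 FPKM in the IFN-γ libraries, against 2.41, 2.86, 2.54 and 2.56 in the untreated libraries. The groups were separate and the mean was 1.72-fold higher (log2 change 0.76, SE 0.10, limma adjusted p = 3.2e-04). The gene shares 535 exonic bases with EPHA5-AS1 on the other strand, which was at 2.41 FPKM with IFN-γ and 2.06 untreated. EPHA6 was at 1.93, 2.11, 1.95 and 1.497 FPKM in the IFN-γ libraries, against 3.30, 3.25, 2.50 and 3.49 in the untreated libraries (log2 change -0.72, SE 0.13, limma adjusted p = 0.00354). EPHA2, found mainly in epithelia, was at 1.17, 1.18, 0.969 and 0.880 FPKM in the IFN-γ libraries, against 1.65, 1.60, 1.69 and 1.81 in the untreated libraries (log2 change -0.65, SE 0.13, limma adjusted p = 0.00447). Both were lower in all 4 IFN-γ libraries. EPHA7, the most abundant Eph receptor, was lower by a small margin at 28.1, 29.2, 27.5 and 27.7 FPKM in the IFN-γ libraries, against 30.4, 31.8, 31.2 and 31.5 in the untreated libraries (log2 change -0.15, SE 0.04, limma adjusted p = 0.0126). EPHA8 was not called at 1.42 ± 0.2999 FPKM with IFN-γ and 1.49 ± 0.132 untreated. EPHA3 was listed at 0 in all 8 libraries, and EPHA1, EPHA4 and EPHA10 were below the filter, EPHA10 highest at 0.167 ± 0.118 FPKM with IFN-γ and 0.177 ± 0.0701 untreated.

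EphB receptors, which bind ephrin-B ligands, had 3 of 5 members tested and all 3 were called. EPHB2, a receptor of axons and dendritic spines, was higher at 2.13, 1.79, 2.18 and 1.86 FPKM in the IFN-γ libraries, against 1.56, 1.31, 1.51 and 1.47 in the untreated libraries (log2 change 0.42, SE 0.11, limma adjusted p = 0.0210). EPHB3 was lower at 0.221, 0.663, 0.742 and 0.434 FPKM in the IFN-γ libraries, against 0.877, 1.05, 0.979 and 1.16 in the untreated libraries (log2 change -0.95, SE 0.29, limma adjusted p = 0.0401), with an estimated 17.4 to 52.3 fragments per library with IFN-γ and 61.1 to 86.4 untreated. EPHB4, the main receptor of ephrin-B2, was lower at 2.21, 2.24, 2.31 and 2.11 FPKM in the IFN-γ libraries, against 2.83, 2.58, 2.64 and 2.82 in the untreated libraries (log2 change -0.28, SE 0.08, limma adjusted p = 0.0307). No group overlapped, and each call was lost without some single libraries. EPHB2 lost it without IFN-γ replicate 1 or 3 or untreated replicate 2 (limma adjusted p = 0.0593 to 0.0641) and in TPM without short RNA genes (0.113), EPHB3 without any but IFN-γ replicate 2 or 3 (0.0504 to 0.102) and after quantile normalization (0.0531), and EPHB4 without any but IFN-γ replicate 3 or 4 (0.0503 to 0.0830). EPHB1 and the kinase-inactive EPHB6 were below the filter, EPHB1 at 0.0804 ± 0.0372 FPKM with IFN-γ and 0.146 ± 0.02998 untreated without overlap.

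SLIT3 was the third most abundant guidance gene and the only SLIT tested. It was at 52.1, 52.4, 53.1 and 44.7 FPKM in the IFN-γ libraries, against 48.1, 47.0, 46.3 and 47.0 in the untreated libraries. The groups overlapped through IFN-γ replicate 4 (log2 change 0.10, SE 0.05, limma adjusted p = 0.233). Its receptor ROBO1 was not called at 9.99 ± 0.474 FPKM with IFN-γ and 10.4 ± 0.515 untreated (limma adjusted p = 0.521). SLIT2 lay below the filter at 0.167, 0.293, 0.213 and 0.294 FPKM in the IFN-γ libraries, against 0.126, 0.122, 0.117 and 0.143 in the untreated libraries, without overlap and higher with IFN-γ, and in a fit without a filter it did not pass (limma adjusted p = 0.0560). SLIT1 was below the filter too, at 0.190 ± 0.0717 FPKM with IFN-γ and 0.309 ± 0.0574 untreated. ROBO2 was at 0.148 ± 0.0343 FPKM with IFN-γ and 0.257 ± 0.0503 untreated, ROBO3 at 0.427 ± 0.105 FPKM with IFN-γ and 0.373 ± 0.0693 untreated, and ROBO4, the endothelial ROBO, at 0 in 4 of 4 IFN-γ libraries and at most 0.0493 untreated.

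**Figure D3:**
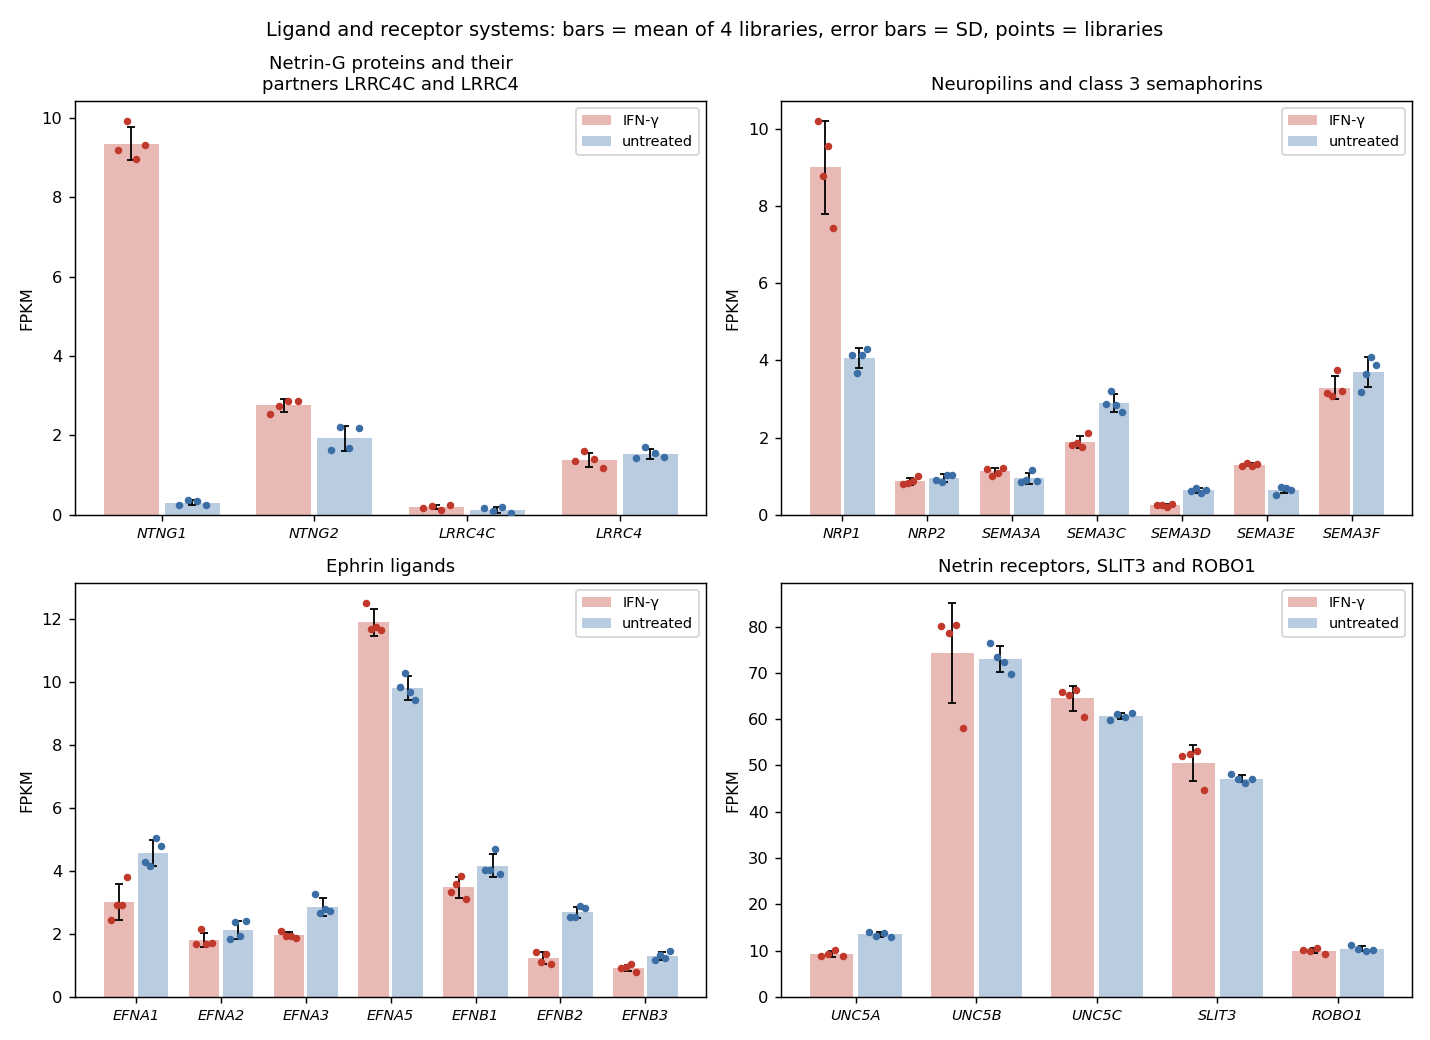
FPKM of 4 ligand and receptor systems in IFN-γ (red, left) and untreated (blue, right) libraries, with bars for the mean of 4 libraries, error bars for SD and points for libraries. NTNG1 and NRP1 stand out with IFN-γ, 6 of the 7 ephrins drawn have a lower mean with IFN-γ, and UNC5B, UNC5C and SLIT3 hold the highest levels, each with 1 IFN-γ library below the other 3.

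In all, 25 of the 71 genes lay below the filter, 8 of them at 0 in at least 1 library. The largest of the 25, SEMA6C, had a mean of 0.499883 FPKM, and the smallest tested, EPHB3, 0.766. Of the 24 above 0 in at least 1 library, the groups did not overlap in 5, 1 higher and 4 lower, where this held for 7.24% of the table's 6427 such genes (4.22% higher, 3.02% lower), with SLIT2 higher and SEMA3D, EPHB1, UNC5D and ROBO2 lower, and SEMA3D was the 1 gene of them called in a fit without a filter. SEMA5A, SEMA5B, SEMA6B and SEMA7A, the ligand of PLXNC1, completed the list, with SEMA5A at 0.486 ± 0.0711 FPKM with IFN-γ and 0.471 ± 0.0861 untreated and SEMA7A at 0.187 ± 0.0687 FPKM with IFN-γ and 0.227 ± 0.0643 untreated.

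**Figure D4:**
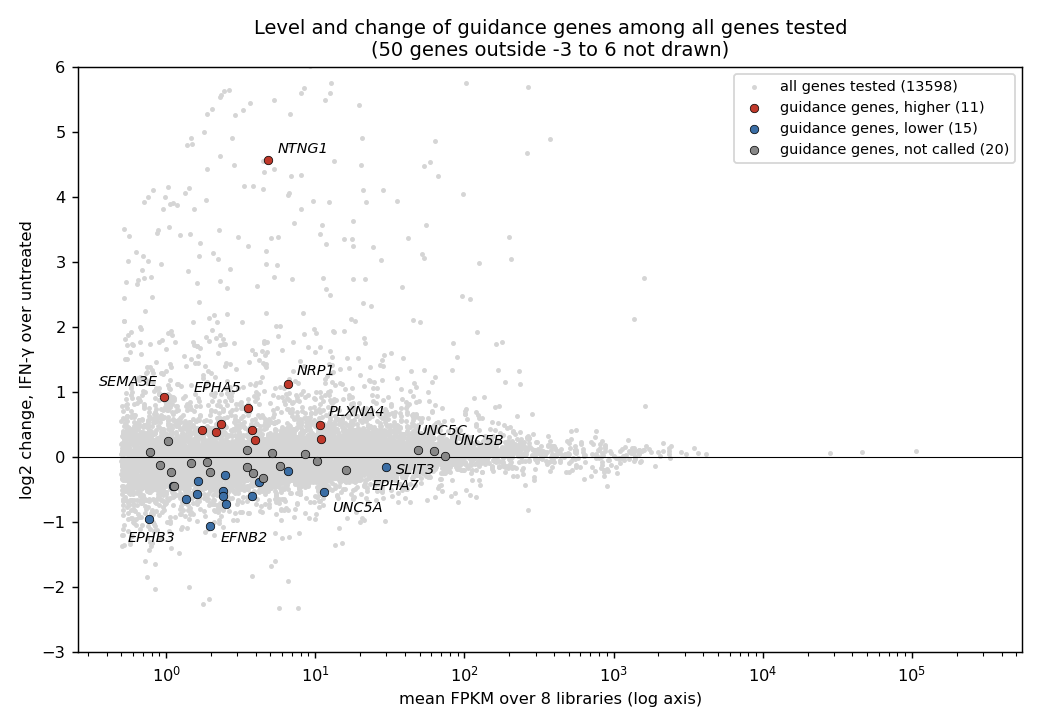
Mean FPKM over 8 libraries (log axis) against log2 change (IFN-γ over untreated) for all 13598 genes tested (light grey) and the 46 guidance genes (outlined: red higher, blue lower, grey not called). The 3 most abundant, UNC5B, UNC5C and SLIT3, lie near 0, and the changes are in genes of lower level. The median level of the 46 was 3.49 FPKM and that of all genes tested 9.22.

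Other genes of guidance were read from lists that hold none of the 71. The lists were chosen with earlier results of these data known, so their shares called are descriptions only. Of 27 further cues and co-receptors 19 were tested, with 7 higher and 6 lower (68.4% called, against 22.3% of all genes, median log2 change -0.10). In TPM without short RNA genes 4 were higher. The chemokine gene CXCL12 was at 2.60, 3.18, 2.89 and 1.87 FPKM in the IFN-γ libraries, against 1.37, 1.07, 1.09 and 0.962 in the untreated libraries (log2 change 1.14, SE 0.17, limma adjusted p = 8.4e-04), and its receptor gene CXCR4, which steers migrating crest cells, at 10.9, 13.1, 11.4 and 14.4 FPKM in the IFN-γ libraries, against 6.71, 6.23, 7.81 and 8.28 in the untreated libraries (log2 change 0.77, SE 0.11, limma adjusted p = 6.2e-04). Both were separate between groups. FLRT3, an adhesion protein that binds UNC5 receptors, was at 5.09, 4.99, 4.32 and 5.64 FPKM in the IFN-γ libraries, against 1.95, 2.28, 2.45 and 2.31 in the untreated libraries (log2 change 1.12, SE 0.10, limma adjusted p = 2.3e-05). CNTN2, an axonal adhesion protein, was lower at 0.945, 0.899, 1.06 and 0.588 FPKM in the IFN-γ libraries, against 1.76, 1.68, 1.61 and 1.55 in the untreated libraries (log2 change -0.88, SE 0.17, limma adjusted p = 0.00393). The 4 IFN-γ values of FLRT3 were above, and those of CNTN2 below, all untreated ones. CNTN1, abundant in this line, was lower at 99.3 ± 4.59 FPKM with IFN-γ and 127 ± 4.90 untreated (limma adjusted p = 2.5e-04). ITGB1, the β1 integrin, was higher at 143 ± 5.91 FPKM with IFN-γ and 129 ± 1.24 untreated (limma adjusted p = 0.0276). The sign of that change turned after quantile normalization (log2 change -0.012, limma adjusted p = 0.798), and the call was lost without IFN-γ replicate 2 or 3 or any untreated library (0.0525 to 0.0784). MET, FLRT2 and CHL1 were listed at 0 in all 8 libraries.

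Of 57 intracellular transducers 50 were tested, with 7 higher and 6 lower (26.0% called, close to the 22.3% of all genes, median log2 change -0.0081). In TPM without short RNA genes 3 were higher, and after quantile normalization 16 were lower. 11 were higher without IFN-γ replicate 4. PAK3, a kinase downstream of Rac, was at 1.31, 1.14, 1.66 and 1.30 FPKM in the IFN-γ libraries, against 0.553, 0.318, 0.356 and 0.859 in the untreated libraries (log2 change 1.29, SE 0.26, limma adjusted p = 0.00543). KALRN, a guanine nucleotide exchange factor of EphB signalling in spines, was at 6.39, 5.82, 5.36 and 3.98 FPKM in the IFN-γ libraries, against 3.02, 2.75, 2.49 and 2.26 in the untreated libraries (log2 change 0.99, SE 0.15, limma adjusted p = 7.1e-04). Both were higher in all 4 IFN-γ libraries. CHN1, a Rac-inactivating protein downstream of EphA receptors, was at 83.9, 81.3, 85.3 and 98.5 FPKM in the IFN-γ libraries, against 56.5, 60.2, 58.1 and 61.3 in the untreated libraries (log2 change 0.56, SE 0.06, limma adjusted p = 7.7e-05). DPYSL3, a CRMP family mediator of semaphorin signals, was lower at 13.4, 14.6, 13.7 and 14.3 FPKM in the IFN-γ libraries, against 21.7, 21.4, 22.3 and 21.7 in the untreated libraries (log2 change -0.63, SE 0.04, limma adjusted p = 1.3e-06). CHN1 was higher and DPYSL3 lower in all 4 IFN-γ libraries. The most abundant, CFL1 (cofilin, which severs actin) at 429 ± 33.2 FPKM with IFN-γ and 397 ± 8.09 untreated and RHOA at 135 ± 13.5 FPKM with IFN-γ and 132 ± 2.69 untreated, were not called (limma adjusted p = 0.221 and 0.775), and RHOA was called lower after quantile normalization (log2 change -0.12, adjusted p = 0.0254).

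**Figure D5:**
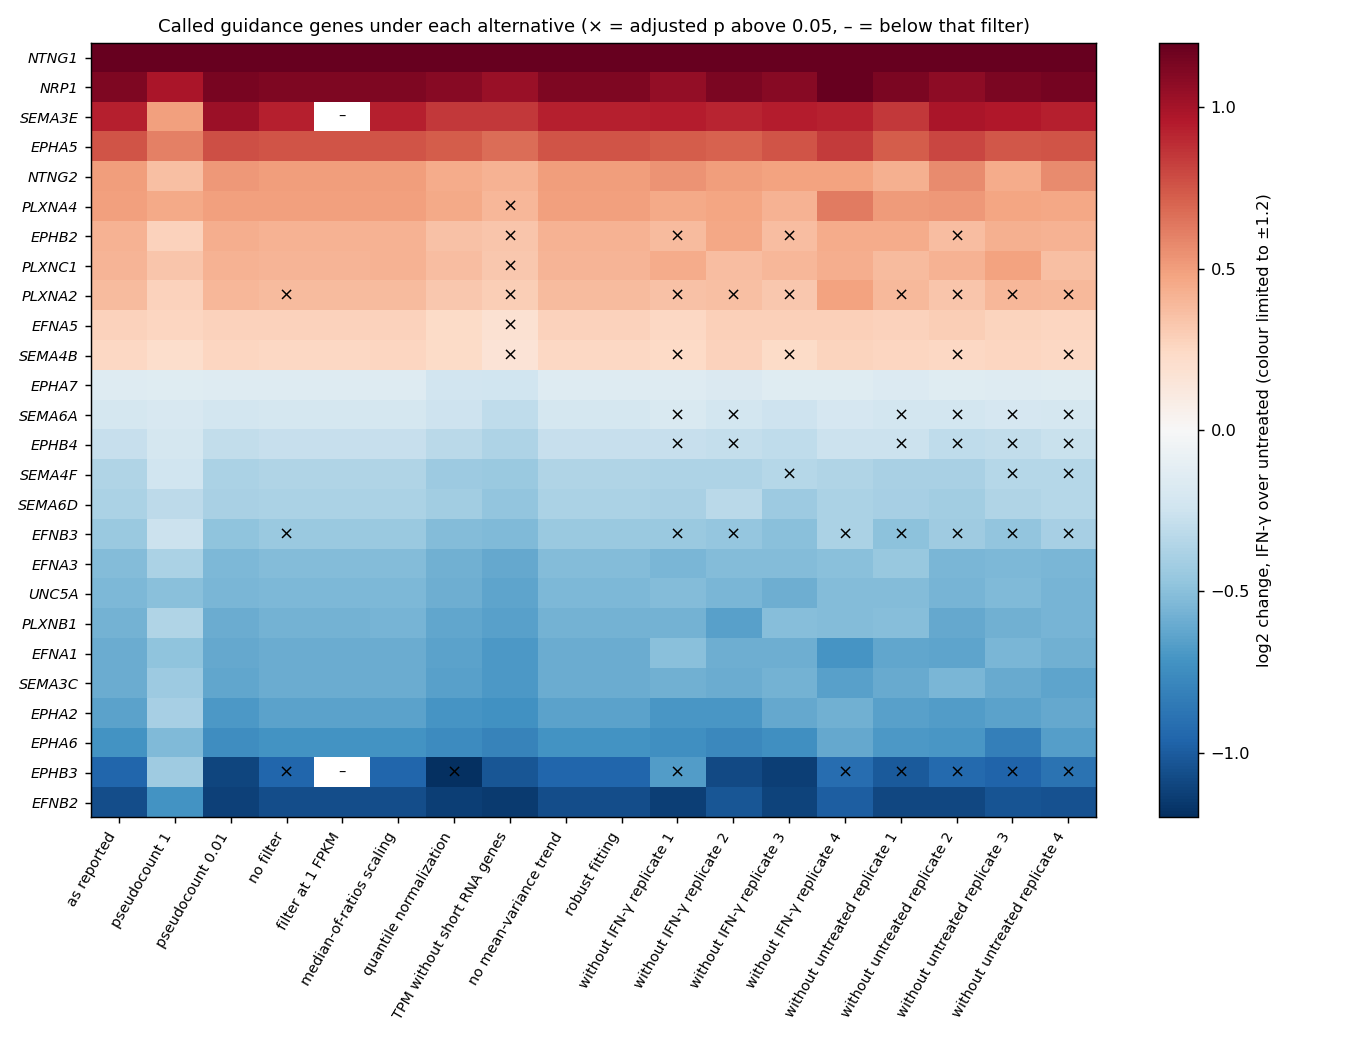
Log2 change of the 26 called guidance genes (rows, from the largest rise to the largest fall) as reported and under alternative pseudocounts, filters, scalings, fits and with each library left out (columns), with a cross where the limma adjusted p was above 0.05 and a dash where the gene fell below that filter. 15 genes, NTNG1, NRP1, SEMA3E, EPHA5, NTNG2, UNC5A and EFNB2 among them, have no cross, and no gene changes colour.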

How the data were processed

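RNA-seq of 8 libraries was used, grouped by the treatment in the labels. Per the labels' protocols, libraries were made after ribosomal RNA depletion, with 1 µg of total RNA each, and read as pairs of 150 nt. The authors deposited FPKM values for each gene and library. TopHat2, Cuffdiff and the hg38 build are named in the submitters' processing notes. Not given in the sources used here are tool versions, annotation and library scaling. Counts were not among the files, and no count model was run.

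Values were taken as log2(FPKM + 0.1). A gene was tested where its 8 libraries averaged 0.5 FPKM or more, which left 13598 of 26372 symbols. The two-sided test was limma 3.58.1 in R 4.3.3 with the variance fitted as a trend on the mean. P-values were adjusted over all tested genes by Benjamini-Hochberg, and the threshold was 0.05. The fit was tested on simulated data (13598 genes, 200 changed): 7 of 160 calls were false. The members and lists were chosen with earlier results of these data known. Every called member is named with all its values, and of each other list up to 4 called genes with the largest change and up to 2 with the highest level. NEO1, LRRC4 and LRRC4C were added as binding partners, and PDGFRB, COL1A1 and SEMA3D after their values were seen.

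The spacing of low FPKM values puts the depth at about 14100000 to 20600000 fragments per library, at which 1 fragment per kilobase is worth 0.0485 to 0.0708 FPKM. Pearson's r of log2 values was 0.983 to 0.989 within groups and 0.930 to 0.938 between them. SNORD3A, a small nucleolar RNA, held 5.97 to 57.9% of the FPKM sum of untreated libraries and 0 with IFN-γ. Positions came from GENCODE release 29 (GRCh38), which matched all 71 symbols, and promoters from RefSeq (GRCh38.p14). The alternatives changed the pseudocount (1 or 0.01), the filter (none, or 1 FPKM) and the scaling (median of ratios, quantile, or TPM without short RNA genes), and used limma without the trend or robust, a replicate block, and each library left out.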

Additional observations from a re-analysis of the deposited data

Results flagged for a closer look

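In 12 of 116 groups of 4 libraries (58 genes, the 46 tested guidance genes and 12 named from the other lists) 1 library lay far from the other 3 by Dixon's test, which chance does in about 1 of 20 groups. 5 of the 12 were IFN-γ replicate 4. There PLXNA1 was at 2.93 FPKM (others 3.78 to 3.95), PLXNB2 was at 12.4 FPKM (others 15.8 to 15.9), UNC5B was at 58.1 FPKM (others 78.7 to 80.3), SLIT3 was at 44.7 FPKM (others 52.1 to 53.1) and RHOA at 155 FPKM (others 126 to 129.7). This library was the lowest of its group in the 4 guidance genes and the highest in RHOA.

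The other flagged values lay in 6 different libraries. EFNA2 was at 2.15 FPKM in IFN-γ replicate 2, where the other 3 of the group were at 1.68 to 1.71. EFNA3 was at 3.26 FPKM in untreated replicate 1, where the other 3 of the group were at 2.67 to 2.77. EFNA5 was at 12.5 FPKM in IFN-γ replicate 1, where the other 3 of the group were at 11.6 to 11.7. EPHA8 was at 1.30 FPKM in untreated replicate 4, where the other 3 of the group were at 1.53 to 1.57. SEMA3A was at 1.15 FPKM in untreated replicate 3, where the other 3 of the group were at 0.847 to 0.891. PLXNA2 was at 1.70 FPKM in untreated replicate 2, where the other 3 of the group were at 1.91 to 1.95. PLXNB3 was at 1.44 FPKM in untreated replicate 1, where the other 3 of the group were at 1.246 to 1.27. EFNA3, EFNA5 and PLXNA2 are called genes, and in each the groups stayed separate with the distant library included. The call of PLXNA2 was lost without untreated replicate 2 (limma adjusted p = 0.118), and those of EFNA3 and EFNA5 were kept without any single library.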

How the results depend on the processing

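Of the 26 called guidance genes, 15 (5 higher, 10 lower) kept direction and call in each of the 18 alternatives that tested them (SEMA3E was not tested at a filter of 1 FPKM), 11 lost the call in at least 1, 8 of them when a library was left out, and no sign changed. In TPM without short RNA genes 5 guidance genes were higher, 4 further cues and co-receptors, 3 transducers and 1145 of all genes, and the median change of all genes was -0.09 (log2) there and -0.07 after quantile normalization. Quantile normalization gave 2564 lower calls over all genes and 16 among the transducers, and gave ITGB1 (-0.012) and RHOA (-0.12) the opposite sign. The cause was not tested. With 1 library left out, 8 to 14 guidance genes were higher and 10 to 14 lower, 5 to 7 and 5 to 6 further cues and co-receptors, 6 to 11 and 5 to 7 transducers, and 1484 to 2157 and 852 to 1698 of all genes. With the replicate number as a replicate block, 9 guidance genes were higher and 11 lower, and 1639 and 1017 of all genes, and EFNB3, EPHB4, SEMA4B, SEMA4F, SEMA6A and PLXNA2 were not called. Same-numbered libraries deviated together at correlations of -0.027 to 0.079, and differently numbered ones at -0.094 to 0.086. Whether the numbers pair the libraries is not stated, and correlations this small cannot decide it. Without a filter EFNB3, EPHB3 and PLXNA2 lost the call (limma adjusted p = 0.0566, 0.0626 and 0.0753). Low FPKM rest on few fragments, about 19.1 for NTNG1 in untreated replicate 4, and values of such genes are the least precise.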

Other observations

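Neighbouring guidance genes did not always move together. EFNA4, EFNA3 and EFNA1 lie in a row on chromosome 1 (GRCh38, GENCODE release 29), EFNA3 from 155078872 to 155087538 and EFNA1 from 155127460 to 155134857. Both were lower, by 0.52 and 0.60 on the log2 scale, and EFNA4 was below the filter at 0.340 ± 0.134 FPKM with IFN-γ and 0.426 ± 0.147 untreated. EFNA3 shares 853 exonic bases with a same-strand gene, AL691442.1, which also overlaps EFNA4, so reads of the 3 may be divided between them. On chromosome 7 SEMA3E (83363238 to 83649113), SEMA3A (83955777 to 84492724) and SEMA3D (84995553 to 85186855) follow each other. SEMA3E was higher, SEMA3A was not called, and SEMA3D was at 0.240 ± 0.0233 FPKM with IFN-γ and 0.630 ± 0.0574 untreated. EPHA8 and EPHB2 are 107 kb apart on chromosome 1, the first not called and the second higher.

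Ligands and receptors of a system moved the same way in some pairs and not in others. EFNB2 and its receptor EPHB4 were both lower, by 1.06 and 0.28 on the log2 scale. Of the other EphB receptors tested, EPHB3 was lower by 0.95 and EPHB2 higher by 0.42. All these EphB calls were lost without some single libraries. EFNA5 and its receptor EPHA5 were both higher, by 0.28 and 0.76, the EFNA5 call being lost in TPM without short RNA genes. Of the other EphA receptors tested, EPHA2, EPHA6 and EPHA7 were lower, by 0.65, 0.72 and 0.15, and EPHA8 was not called. SEMA3E was higher while its receptor PLXND1 was not called at 5.52 ± 0.458 FPKM with IFN-γ and 6.08 ± 0.273 untreated. NRP1, PLXNA4 and PLXNA2 were higher while SEMA3A was not called and SEMA6A was lower. These pairs were put together after their values were seen, and no test of pairs was made.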
